A study of Mus musculus with 2 samples.

Results

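The 8 genes described here make superoxide or remove it. They are 5 subunits of the phagocyte NADPH oxidase (Cybb, Cyba, Ncf1, Ncf4 and Rac2), the superoxide dismutases Sod1 and Sod2, and catalase (Cat). They were chosen by symbol, as 8 of the 31053 genes measured in both libraries. Immune cells from the pancreatic islets of male C57BL/6J mice on chow were sorted as live, Epcam-negative and CD45-positive, and their transcripts were counted from the 3' end with unique molecular identifiers (UMIs), which count each captured molecule 1 time. Of the 2 libraries, 1 was labelled 12 weeks and 1 was labelled 1 week, each from islets pooled from 6 to 8 mice. The event from which the weeks run is not stated, and each library also had its own experiment number, so time label, experiment and library cannot be told apart.

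The phagocyte oxidase passes electrons from NADPH across a membrane to oxygen and so makes superoxide. Its core is a pair of membrane proteins, the catalytic gp91phox from Cybb and its partner p22phox from Cyba, and it works only when cytosolic subunits, among them p47phox (Ncf1) and p40phox (Ncf4), and a Rac GTPase join it from the cytosol. Superoxide dismutases turn superoxide into hydrogen peroxide, Sod1 in the cytosol and Sod2 in mitochondria, and catalase splits hydrogen peroxide into water and oxygen. Phagocytes use the oxidase against microbes and in signalling, and Sod2 is a well-known target of NF-kB in inflammatory settings.

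Macrophages were taken as barcodes with at least 5 UMIs of the complement genes C1qa, C1qb and C1qc together. There were 1620 macrophages among 1752 filtered barcodes at 12 weeks and 1243 among 1340 at 1 week, and 18 of those at 12 weeks and 25 of those at 1 week had only 5 to 9 C1q UMIs. The macrophage markers were checked in these cells: all 10 listed markers were detected, and Csf1r, the receptor for the growth factor that macrophages depend on, had a UMI in 90.6% of these cells at 12 weeks and 89.5% at 1 week. Cells with at most 2 C1q UMIs were classed by B, T, dendritic and other marker genes (at least 3 UMIs of 1 list). The 12-week library held 27 B-marker, 29 T-marker and 22 dendritic-marker cells, and the 1-week library held 27 B-marker, 9 T-marker and 11 dendritic-marker cells. Only 3 barcodes occurred in both libraries. Hormone transcripts of islet endocrine cells were present throughout, and the 7 listed endocrine genes summed to 5764 CPM (counts per 1000000 UMIs) in macrophages at 12 weeks and 19751 CPM at 1 week. In the 1-week B-marker class they summed to 110139 CPM, with 1 of the 27 cells over 10% endocrine UMIs. Apoe, a transcript very abundant in the macrophages, stood at 4.91% and 1.12% of its macrophage level in B-marker cells, at 1.47% and 0.691% in T-marker cells and at 1.54% and 0.444% in dendritic-marker cells at 12 weeks and 1 week. The part of free macrophage RNA and mixed droplets in the results was not tested.

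The start regions of the 3 members whose levels differed most clearly between macrophages and the low-C1q classes follow. Each window, from RefSeq's table for GRCm38.p6, runs from 250 bases before to 50 bases after the gene start as RefSeq places it. Sequences are given 5′ to 3′ on the strand of the gene. The gene spans stated further below are from GENCODE, which can place the start elsewhere. The Cybb and Sod2 windows lie inside those spans and do not cover the GENCODE starts, whereas the Cyba window does. Capitals mark matches, on either strand, to GGG and CC 5 bases apart (a loose form of the NF-kB motif), to TGAC and GC 3 bases apart (the core of the element bound by NRF2) and to GAGGAA (a core bound by the myeloid factor PU.1).
Sod2 promoter, chr17:13007589-13007888, plus strand: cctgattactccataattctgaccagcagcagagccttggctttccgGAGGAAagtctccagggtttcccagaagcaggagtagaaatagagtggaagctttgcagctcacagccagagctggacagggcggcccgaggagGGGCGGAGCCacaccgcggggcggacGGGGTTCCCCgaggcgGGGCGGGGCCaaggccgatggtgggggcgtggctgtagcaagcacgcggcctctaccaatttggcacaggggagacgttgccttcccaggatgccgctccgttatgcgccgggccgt
Cybb promoter, chrX:9469275-9469574, minus strand: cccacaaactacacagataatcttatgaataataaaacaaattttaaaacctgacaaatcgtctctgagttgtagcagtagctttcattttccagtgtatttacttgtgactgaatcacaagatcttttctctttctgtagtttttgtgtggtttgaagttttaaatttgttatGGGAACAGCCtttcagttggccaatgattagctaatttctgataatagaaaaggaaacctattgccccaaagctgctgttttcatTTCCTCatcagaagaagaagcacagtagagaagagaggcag
Cyba promoter, chr8:122432891-122433190, minus strand: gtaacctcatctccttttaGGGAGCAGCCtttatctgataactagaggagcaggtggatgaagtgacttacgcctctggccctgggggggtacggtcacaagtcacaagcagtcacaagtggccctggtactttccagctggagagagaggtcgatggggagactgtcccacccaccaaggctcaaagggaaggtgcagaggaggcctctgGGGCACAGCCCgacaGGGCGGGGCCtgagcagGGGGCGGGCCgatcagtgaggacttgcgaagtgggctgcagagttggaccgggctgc
Of these windows, Sod2 held 3 matches to the NF-kB form and 1 to the PU.1 core, Cybb held 1 of each, and Cyba held 5 to the NF-kB form alone. None of the 3 held the NRF2 core, and among the 6 members in the table only Sod1 did. The matches are weak descriptions, since 50.8% of all 32851 windows in the table held the NF-kB form, 28.3% the PU.1 core and 12.4% the NRF2 core. The Cybb window had a GC content of 35.3%, against 64.3% for Sod2 and 60.7% for Cyba. No match speaks for or against binding of a factor.

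Macrophages held more of the membrane core of the oxidase than the low-C1q classes, and mostly of Cybb. The catalytic subunit gene Cybb (chromosome X, 9435252 to 9487771, minus strand, GRCm38) averaged 594 ± 67.8 CPM in macrophages, against 115 ± 41.4 CPM in B-marker cells, 192 ± 43.8 CPM in dendritic-marker cells and 3.79 ± 5.36 CPM in T-marker cells (SD, n = 2 libraries each). The levels were 546 CPM in macrophages, 144 in B-marker and 223 in dendritic-marker cells at 12 weeks, and 642 CPM in macrophages, 85.3 in B-marker and 161 in dendritic-marker cells at 1 week. Macrophages were thus highest in both libraries, and the B-marker and dendritic-marker levels did not reach them. T-marker cells had 1 Cybb UMI at 12 weeks and 0 at 1 week, so the ratio of macrophages over T-marker cells was 72.1 at 12 weeks (95% counting interval on the log2 scale 3.69 to 11.5) and at least 6.05 at 1 week, taken against 3 UMIs.

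Cyba, which steadies gp91phox, was the most abundant of the 8 genes in macrophages and in each of these 3 classes. It had 1174 CPM in macrophages, 761 in B-marker, 379 in T-marker and 974 in dendritic-marker cells at 12 weeks, and 1166 CPM in macrophages, 614 in B-marker, 460 in T-marker and 966 in dendritic-marker cells at 1 week. The 2 macrophage values differed by under 1%, and dendritic-marker cells came closest to them. Cyba lies at chromosome 8, 122424776 to 122432930, minus strand. UMI counts of 3' ends do not grow with transcript length, so levels of different genes are compared here as molecules captured.

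**Figure D1:**
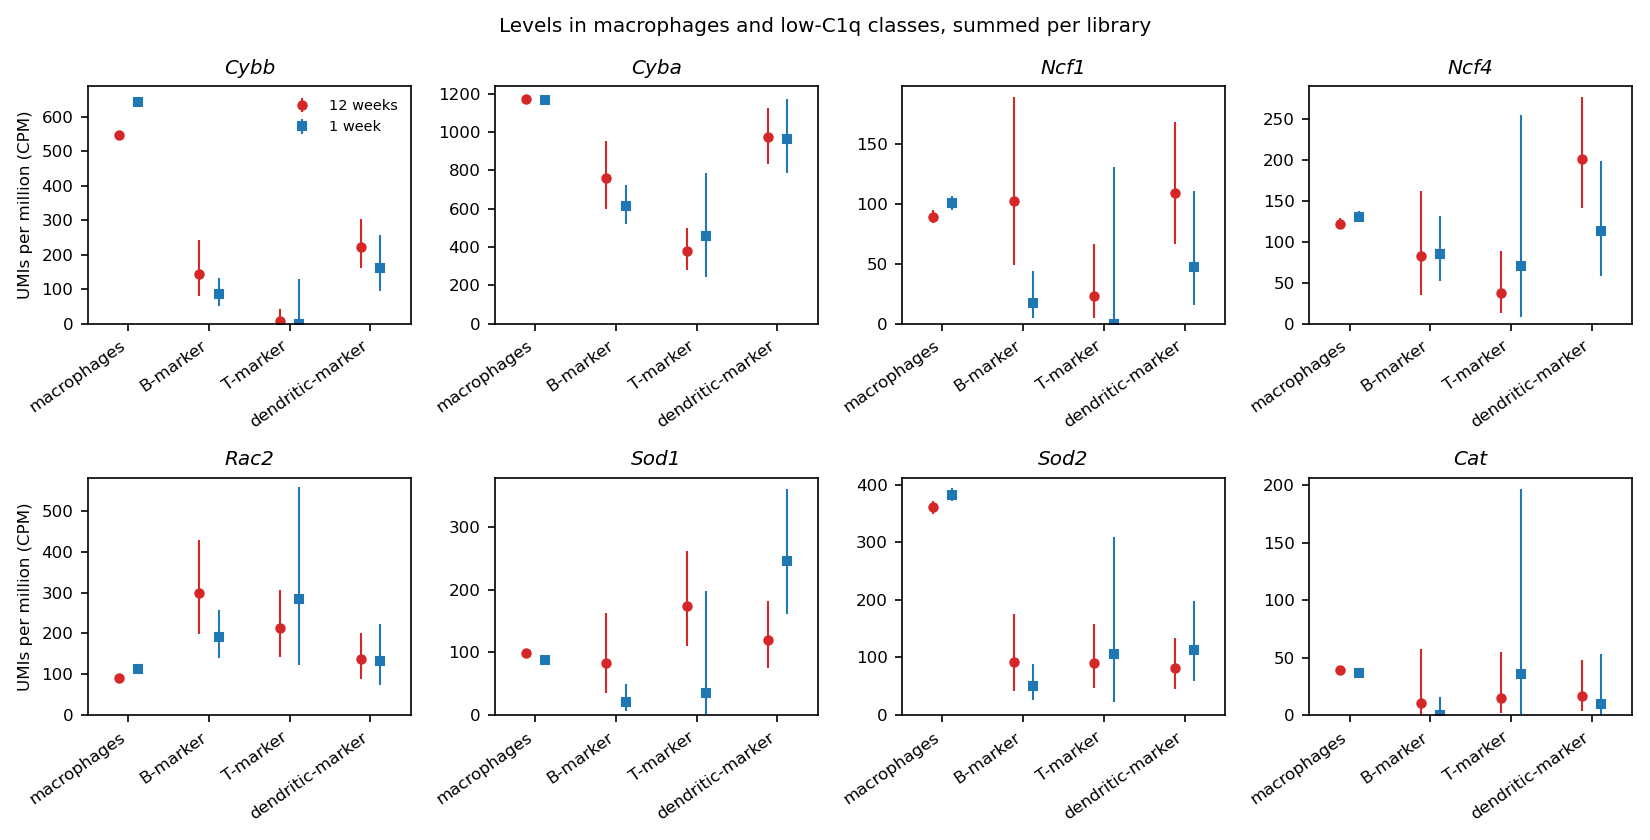
Level of each of the 8 genes in CPM (y axis, linear, a separate scale per gene) in macrophages and in low-C1q cells with B, T or dendritic markers, for the 12-week (circles) and 1-week (squares) libraries, with 95% Poisson counting intervals. Cybb and Sod2 are highest in macrophages in both libraries, Rac2 is highest in B- and T-marker cells, and for the other 5 genes macrophages do not stand apart from every low-C1q class in both libraries.

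The genes of the cytosolic subunits did not share that pattern. Ncf1 and Ncf4, which encode the organiser p47phox and its helper p40phox, stood at 89.2 and 122 CPM in macrophages at 12 weeks and at 101 and 131 CPM at 1 week. In dendritic-marker cells Ncf1 had 109 CPM at 12 weeks and 47.4 at 1 week, and Ncf4 had 201 and 114 CPM. In B-marker cells Ncf1 had 103 CPM at 12 weeks and 17.1 at 1 week, and Ncf4 had 82.2 and 85.3 CPM. Neither gene kept macrophages on the same side of the dendritic-marker cells in both libraries. Rac2, a Rac GTPase of blood cells, was lowest in macrophages, with 89.8 CPM at 12 weeks and 112 CPM at 1 week, against 298 and 192 CPM in B-marker, 212 and 283 CPM in T-marker and 136 and 133 CPM in dendritic-marker cells at 12 weeks and 1 week. The dendritic-marker values overlapped those of macrophages within counting intervals.

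The antioxidant genes split as well. Sod2, the mitochondrial dismutase (chromosome 17, 13006846 to 13040063, plus strand), had 361 CPM in macrophages at 12 weeks and 383 CPM at 1 week. Its highest level in the low-C1q B-, T- and dendritic-marker classes was 114 CPM, in dendritic-marker cells at 1 week. Its lowest level there was 51.2 CPM, in B-marker cells at 1 week. Outside these 3 classes macrophages did not stand apart at 12 weeks. The 6 monocyte-marker cells of that library had 279 CPM of Sod2 (95% counting interval 139 to 498). Its 10 neutrophil-marker cells had 294 CPM (95.4 to 685). Each interval includes the macrophage level. Sod1, the cytosolic dismutase, had 99.1 CPM in macrophages at 12 weeks and 87.1 CPM at 1 week, and the low-C1q classes lay on both sides of it. Dendritic-marker cells held 120 CPM of Sod1 at 12 weeks and 246 CPM at 1 week, where the UMIs came from only 36.4% of 11 cells. Cat was the least abundant member in macrophages, at 39.1 CPM at 12 weeks and 36.9 CPM at 1 week, and B-marker cells held 10.3 CPM at 12 weeks and none at 1 week, where 3 UMIs would be 12.8 CPM.

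A fit across all genes tested these differences, with the 2 libraries as replicates and as a block. It covered 6 profiles (macrophages, B-marker and dendritic-marker cells in each library), 2882 genes and 7 of the 8 members, Cat being too low for the count filter. The T-marker class, with 9 cells at 1 week, was under the minimum of 10 cells. Against the mean of the B-marker and dendritic-marker classes, 3 members were higher in macrophages and none was lower, where 30.2% of all genes tested were called in either direction, 22.8% higher and 7.36% lower. The log2 fold changes were 2.15 ± 0.23 for Cybb (SE, adjusted p = 0.000659 by the quasi-likelihood test of edgeR with Benjamini-Hochberg adjustment), 2.34 ± 0.25 for Sod2 (edgeR adjusted p = 0.000647) and 0.64 ± 0.18 for Cyba (edgeR adjusted p = 0.0323). The other 4 tested members gave 0.78 for Ncf1, 0.20 for Ncf4, 0.24 for Sod1 and -0.71 for Rac2, with edgeR adjusted p-values of 0.193, 0.616, 0.682 and 0.0569. The Cyba call was lost with a stricter filter on cells (0.52, edgeR adjusted p = 0.132), which also left dendritic-marker cells as the only class to compare with. Rac2 crossed the threshold, as lower, under 5 of the other settings, of which 1 left only B-marker cells and 1 added T-marker cells.

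Set against B-marker cells alone, 4 members were called, where 35.3% of all genes were, 23% higher and 12.3% lower. Cybb (2.45 ± 0.30), Sod2 (2.48 ± 0.33) and Cyba (0.78 ± 0.22) were higher in macrophages, with edgeR adjusted p-values of 0.00117, 0.00151 and 0.0284. Rac2 was lower by a log2 fold change of -1.23 ± 0.27 (edgeR adjusted p = 0.0117), a call that was lost without the filter on low counts (edgeR adjusted p = 0.183) or with low C1q taken as 0 UMIs (edgeR adjusted p = 0.199). The Cyba call was lost in a fit with classes from 5 cells (edgeR adjusted p = 0.0894). Leaving out cells over 10% endocrine UMIs left the count of members called at 4.

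Set against dendritic-marker cells alone, only Cybb and Sod2 were called, where 18.9% of all genes were, 12.7% higher and 6.21% lower. Cybb was higher in macrophages by a log2 fold change of 1.85 ± 0.28 and Sod2 by 2.20 ± 0.31, with edgeR adjusted p-values of 0.00556 and 0.00466. Cyba (0.50 ± 0.22), Ncf1 (0.50 ± 0.50), Ncf4 (-0.13 ± 0.33), Rac2 (-0.19 ± 0.30) and Sod1 (-0.66 ± 0.43) did not pass, with edgeR adjusted p-values from 0.152 to 0.826. The 5 oxidase members had a median log2 fold change of 0.64 against the mean of the classes, 0.78 against B-marker and 0.50 against dendritic-marker cells, beside medians of 0.10, 0.06 and 0.14 over all genes. The p-values measure only the spread between these 2 libraries, which carry different time labels, and with 2 residual degrees of freedom a gene that was not called may still differ.

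**Figure D2:**
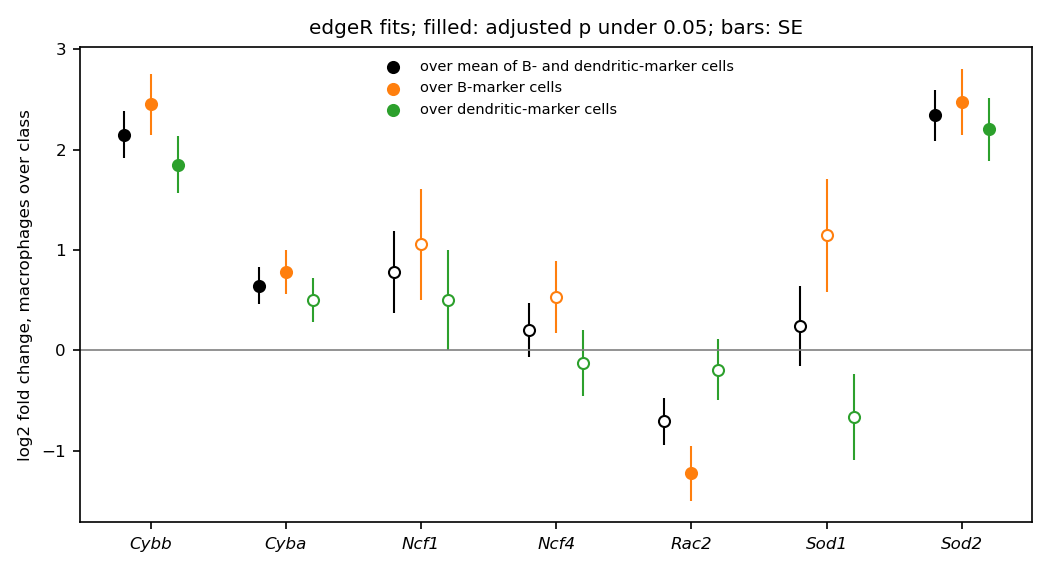
Log2 fold change (y axis) of 7 members, macrophages over low-C1q classes, from the edgeR fit, with bars for the SE and filled points for adjusted p under 0.05. Cybb and Sod2 are the members called in all 3 contrasts, and Rac2 lies below 0 in all 3 but is called only against B-marker cells.

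A further fit that admitted classes from 5 cells, added after the data were seen, allowed a contrast with T-marker cells. There 5 members were called, all higher in macrophages, and 898 of 2773 genes were called. Cyba was higher by a log2 fold change of 1.85, Sod2 by 2.26 and Ncf4 by 1.80, with edgeR adjusted p-values of 0.000772, 0.000772 and 0.0200. Cybb and Ncf1 were also called, but had 1 and 3 UMIs in the T-marker cells at 12 weeks and 0 at 1 week, so no size is given from the fit. Rac2 (-0.91) and Sod1 (-0.27) were not called.

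Neutrophil-marker cells carried all 3 cytosolic subunit genes at levels above those of macrophages, and monocyte-marker cells carried Ncf1 above them in both libraries. In the 12-week library macrophages had 89.2 CPM of Ncf1, 122 CPM of Ncf4 and 89.8 CPM of Rac2. The 10 neutrophil-marker cells of that library, with 17025 UMIs in all, had 529 CPM of Ncf1 (95% counting interval 242 to 1004), 646 CPM of Ncf4 (323 to 1156) and 646 CPM of Rac2 (323 to 1156), and each interval lay above the macrophage level. For Cybb the order was the other way, with 546 CPM in macrophages and 176 CPM (36.3 to 515) in neutrophil-marker cells. The 1-week library held 1 such cell, so the pattern has no other library. Monocyte-marker cells numbered 6 at 12 weeks and 4 at 1 week. Macrophages had 89.2 CPM of Ncf1 at 12 weeks, below the 329 CPM (175 to 563) of monocyte-marker cells, and 101 CPM at 1 week, below their 499 CPM (258 to 872). Ncf4 stood at 122 CPM in macrophages, against 50.6 CPM (6.13 to 183) in monocyte-marker cells at 12 weeks, and at 131 CPM, against 125 CPM (25.7 to 365), at 1 week. Rac2 stood at 89.8 CPM in macrophages, against 127 CPM (41.1 to 295) in monocyte-marker cells at 12 weeks, and at 112 CPM, against 416 CPM (199 to 765), at 1 week. The Ncf4 intervals thus include the macrophage level in both libraries, and that of Rac2 does so at 12 weeks. No test was run on classes this small.

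The partner genes of the oxidase and of the peroxide-removing systems gave a setting for the members. Of 19 oxidase partners, 8 were tested and 2 were higher in macrophages against the mean of the classes, with none lower, where 22.8% of all genes were higher. Rac1, the widely expressed Rac GTPase, rose by a log2 fold change of 0.96 ± 0.25 (edgeR adjusted p = 0.0241), but was not called against dendritic-marker cells alone (0.69, edgeR adjusted p = 0.164). The other was Hvcn1, the proton channel that balances the charge the oxidase moves, which had no UMI in dendritic-marker cells and so gives no size. Listed genes of other NADPH oxidases and their subunits were nearly absent from macrophages. Nox3, Nox4, Noxa1, Duox1 and Duox2 had 0 UMIs in both libraries, which allows up to 0.262 and 0.263 CPM at 3 UMIs. Nox1 had 7 UMIs at 12 weeks and 3 at 1 week, and Noxo1 had 6 and 8.

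Of 16 listed antioxidant partners, 10 were tested and 6 were higher in macrophages against the mean of the classes, with none lower, where 22.8% of all genes were higher. Against dendritic-marker cells alone 4 of the 10 were higher, where 12.7% of all genes were. The peroxiredoxin gene Prdx1 rose by 2.80 ± 0.25, the thioredoxin reductase gene Txnrd1 by 2.53 ± 0.26, the glutathione reductase gene Gsr by 2.17 ± 0.37 and the peroxiredoxin gene Prdx5 by 1.60 ± 0.25 (log2, SE), with edgeR adjusted p-values of 0.000316, 0.000559, 0.00401 and 0.00261. Thioredoxin (Txn1, 1.07) and glutathione peroxidase 1 (Gpx1, 0.78) also passed, with edgeR adjusted p-values of 0.0101 and 0.0381. Neither was called against dendritic-marker cells alone, where Txn1 gave 0.34 and Gpx1 0.19 (edgeR adjusted p = 0.426 and 0.676). The extracellular dismutase gene Sod3 had 0 UMIs in macrophages of both libraries. In macrophages Prdx1 stood at 3314 CPM at 12 weeks and 2491 CPM at 1 week, above every member.

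To compare single macrophages, each cell with at least 4000 UMIs was thinned at random to 4000, which left 1456 macrophages at 12 weeks and 1006 at 1 week and set aside the shallower cells. At that depth Cyba had a UMI in 98.4% of macrophages at 12 weeks and 96.9% at 1 week, and Cybb in 83.2% and 87.8%. The cytosolic genes had lower shares at 12 weeks and 1 week, with Ncf1 in 27.5% and 31.0%, Ncf4 in 36.2% and 38.5% and Rac2 in 27.1% and 33.0%. Among the antioxidant genes, Sod2 was detected at 12 weeks and 1 week in 61.6% and 64.2%, Sod1 in 30.2% and 27.4% and Cat in 13.9% and 15.5%. These shares depend on depth, and at 6000 UMIs the share for Cybb was 91.7% at 12 weeks and 94.2% at 1 week and that for Ncf1 was 36.6% and 40.1%. Shares below 100% are therefore no sign that a cell lacks the transcript.

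Most macrophages held transcripts of both kinds at once. At least 1 oxidase UMI together with at least 1 antioxidant UMI was found in 76.3% of macrophages at 12 weeks (95% exact binomial interval 74.0 to 78.5) and 77.8% at 1 week (75.1 to 80.4). Oxidase UMIs without any of Sod1, Sod2 and Cat were found in 23.4% at 12 weeks and 21.8% at 1 week, and the opposite in 4 and 3 cells. Binomial and Poisson intervals cover counting error only. Both membrane subunits were seen together in 81.9% of macrophages at 12 weeks and 85.3% at 1 week. Both with at least 1 of Ncf1 and Ncf4, Rac2 not being counted here, were seen in 43.2% and 47.3%. All 5 oxidase genes were seen in 2.27% and 4.08%. Among the dismutases, Sod2 without Sod1 was found in 43.6% at 12 weeks and 46.6% at 1 week, Sod1 without Sod2 in 12.2% and 9.84%, and both in 18.0% and 17.6%.

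Most pairs of members occurred in the same macrophages about as often as their separate shares give. For all 28 pairs of members, the share of macrophages with both genes was divided by the product of the separate shares. This ratio ran from 0.896 to 1.12 at 12 weeks and from 0.841 to 1.20 at 1 week, with medians of 1.00 and 0.999. Cybb with Sod2 gave 1.00 at 12 weeks and 1.01 at 1 week. The 7 pairs with Cyba can hardly depart from 1, since nearly every macrophage held a Cyba UMI, so they carry no information on this point. Pairs with Cybb, including Cybb with Sod2, also have little room above 1. Cybb had a UMI in 83.2% of macrophages at 12 weeks and 87.8% at 1 week. A ratio near 1 for them is therefore weak evidence that the 2 genes vary apart. Among the 10 oxidase pairs, Ncf1 with Ncf4 had the highest ratio in each library, 1.12 at 12 weeks (0.961 to 1.29) and 1.14 at 1 week (0.969 to 1.33), and both intervals include 1. Pearson correlations of log2(UMIs + 1) over the same cells lay between -0.07 and 0.10 at 12 weeks and between -0.06 and 0.09 at 1 week, and in counts this sparse such values are no finding in either direction.

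**Figure D3:**
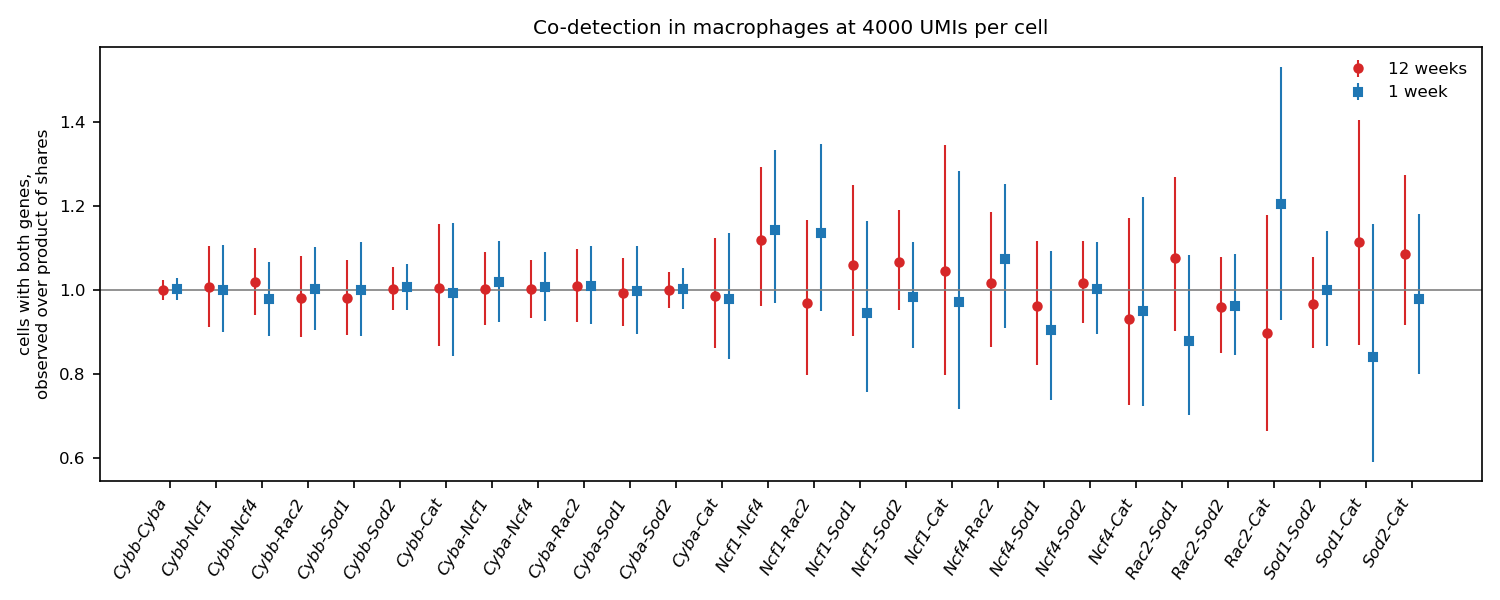
Share of macrophages with both genes of a pair, divided by the product of the separate shares (y axis), for all 28 pairs at 4000 UMIs per cell in the 12-week (circles) and 1-week (squares) libraries, with intervals from the exact binomial interval of the observed share. The points lie around 1, from 0.841 to 1.20, and pairs of rarer genes have the wider intervals.

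The balance leaned to the oxidase transcripts in nearly every macrophage. The 5 oxidase genes had a median of 8 UMIs per macrophage in both libraries, against a median of 2 UMIs for the 3 antioxidant genes. The middle 50% of macrophages ran from 5 to 10 oxidase UMIs at 12 weeks and from 6 to 11 at 1 week, and from 1 to 3 antioxidant UMIs in both. More oxidase than antioxidant UMIs were found in 93.6% of macrophages at 12 weeks and 94.8% at 1 week, and more antioxidant UMIs in 3.5% and 2.49%. Cyba alone supplied a mean of 4.67 of the oxidase UMIs per cell at 12 weeks and 4.65 at 1 week, so the lean rests largely on this abundant gene. The numbers are molecules of RNA and say nothing of enzyme activity.

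At this depth the 2 sums had only a low correlation from cell to cell. Macrophages with 0 antioxidant UMIs had a mean of 7.91 oxidase UMIs at 12 weeks and 8.44 at 1 week, and those with at least 6 antioxidant UMIs had 8.67 and 10.2. Pearson's r of the sums was 0.045 over 1456 macrophages at 12 weeks and 0.10 over 1006 at 1 week, in cells that share a library and a fixed depth. At 2000 UMIs r was 0.016 at 12 weeks and 0.044 at 1 week, and at 6000 UMIs it was 0.10 and 0.14. With a median of 2 antioxidant UMIs per cell, a low r is therefore no finding that the sums vary apart. Sod2 had a variance of 2.07 times its mean over cells at 12 weeks and 2.01 times at 1 week, against 1.03 to 1.69 for the other 7 genes. The value would be 1 for counting error alone, and for equal unevenness it rises with the mean. Cybb and Cyba had higher means than Sod2 and lower values, so Sod2 was more unevenly spread than these. Ncf1, Ncf4, Rac2, Sod1 and Cat had lower means, so their values cannot be ranked against that of Sod2.

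**Figure D4:**
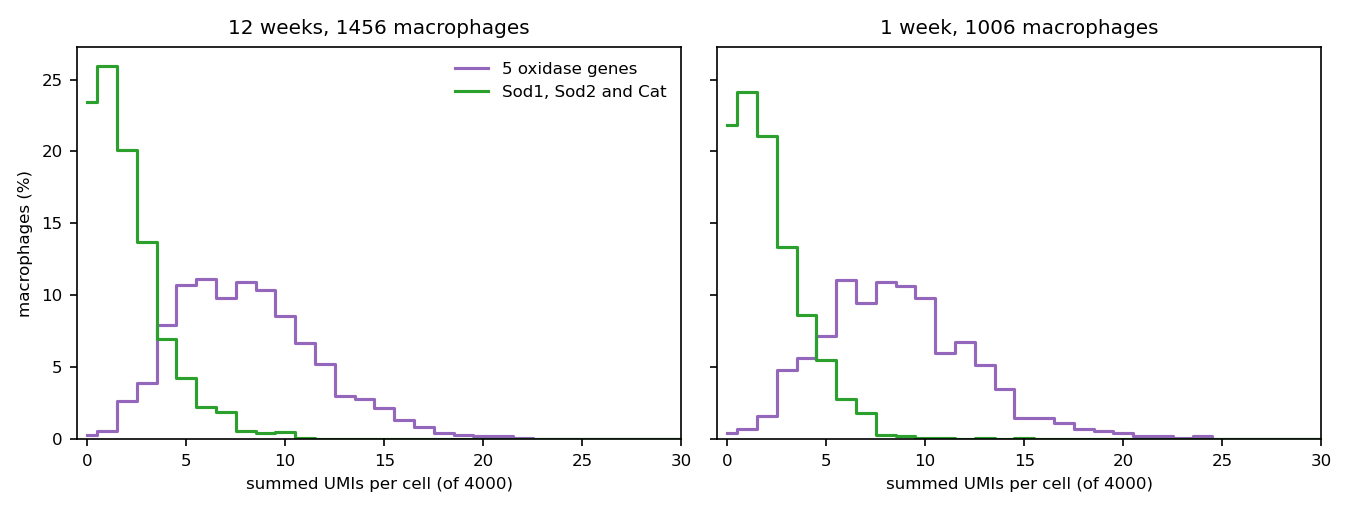
Percent of macrophages (y axis) by summed UMIs per cell (x axis, out of 4000) for the 5 oxidase genes and for Sod1, Sod2 and Cat, in the 12-week (left) and 1-week (right) libraries. The oxidase sums centre on a median of 8 UMIs and the antioxidant sums on a median of 2 in both libraries.

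Other immune cells kept the lean to oxidase transcripts, with a ratio that varied more. Summed over all cells, the oxidase genes had 4.05 times the UMIs of the antioxidant genes in macrophages at 12 weeks (95% counting interval 3.94 to 4.17) and 4.25 times at 1 week (4.13 to 4.37). In B-marker cells the ratio was 7.50 (4.57 to 13) at 12 weeks and 13.7 (8.38 to 23.9) at 1 week, above macrophages in both libraries. Dendritic-marker cells had 7.55 (5.42 to 10.8) at 12 weeks and 3.85 (2.69 to 5.62) at 1 week, and T-marker cells 2.35 (1.58 to 3.55) and 4.60 (1.71 to 15.5), so neither class lay on the same side of macrophages in both libraries. In absolute terms macrophages had 2022 CPM of the oxidase genes at 12 weeks and 2152 CPM at 1 week, against 1388 and 994 CPM in B-marker cells. They had 499 CPM of the antioxidant genes at 12 weeks and 507 CPM at 1 week, against 185 and 72.5 CPM in B-marker cells.

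At equal depth, Cybb and Sod2 were seen together in a larger share of macrophages than of B-, T- or dendritic-marker cells, but not than of monocyte-marker cells. With every cell thinned to 2000 UMIs, both genes were seen in 27.9% of 1592 macrophages at 12 weeks and 32.2% of 1188 at 1 week. At 12 weeks both were seen in 0 of 22 B-marker cells (upper 95% limit 15.4%), 0 of 25 T-marker cells (13.7%) and 1 of 22 dendritic-marker cells (4.55%). At 1 week both were seen in 0 of 27 B-marker cells (12.8%), 0 of 8 T-marker cells (36.9%) and 1 of 11 dendritic-marker cells (9.09%, 95% interval 0.23 to 41.3), where the limits for T- and dendritic-marker cells lie above the macrophage share. Among monocyte-marker cells both were seen in 2 of 6 at 12 weeks (33.3%, 4.33 to 77.7), and the few of the 1-week library were not thinned. Without thinning, the 12-week shares were 68.8% in macrophages, 9.09% in B-marker, 4% in T-marker and 36.4% in dendritic-marker cells, at median depths of 6935, 3534, 3398 and 8045 UMIs. The 1-week shares were 71.8% in macrophages, 18.5% in B-marker, 0% in T-marker and 9.09% in dendritic-marker cells, at median depths of 7635, 5408, 3016 and 10359 UMIs. At equal depth Cybb alone had a UMI in 62.8% of macrophages at 12 weeks and 69.1% at 1 week. It had one in 0 of 25 T-marker cells at 12 weeks (upper 95% limit 13.7%) and 0 of 8 at 1 week (36.9%). Without thinning, 4% of the T-marker cells at 12 weeks had a Cybb UMI. These cells were chosen to have at most 2 C1q UMIs, which sets aside cells with much macrophage RNA. They therefore cannot measure the background of such RNA.

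Among macrophages, Sod2 had higher levels in cells with more UMIs of NF-kB response genes or of NRF2 target genes. Cells were scored by the summed UMIs of 5 gene lists (NF-kB response, NRF2 targets, heat shock, interferon response and cycling), none of which holds a member, and the upper quartile of each score was set against the lower quartile in each library. Tied scores made some groups unequal: the cycling groups were 178 cells with at least 1 UMI against 1278 with 0 at 12 weeks, and 173 against 833 at 1 week. With the NF-kB score, Sod2 had 474 CPM in the upper and 233 CPM in the lower quartile at 12 weeks, and 499 and 268 CPM at 1 week, ratios of 2.04 (95% counting interval 1.79 to 2.32) and 1.86 (1.61 to 2.15). With the score of NRF2 targets, genes switched on by oxidative stress, Sod2 had 442 and 243 CPM at 12 weeks and 514 and 230 CPM at 1 week, ratios of 1.82 at 12 weeks and 2.23 at 1 week. Sod2 was the only member past 1.5-fold higher in both libraries for either score, where 6.14% and 7.01% of all genes were. With interferon its ratios were 1.32 and 1.25, short of that size, where 2.66% of genes were higher and 0.861% lower. The median ratio over all genes lay between 0.88 and 1.07 for every score and library.

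No oxidase gene was higher by that size. In the upper NF-kB quartile Cyba had 982 CPM against 1324 CPM in the lower quartile at 12 weeks and 1013 against 1304 CPM at 1 week, ratios of 0.742 and 0.777, and Ncf4 had ratios of 0.711 and 0.680. Cybb went the other way, with ratios of 1.17 at 12 weeks and 1.32 at 1 week. In the upper NRF2 quartile, at 12 weeks and 1 week, Ncf1 had ratios of 0.533 and 0.736, Ncf4 0.689 and 0.780 and Rac2 0.568 and 0.908, none of them past 1.5-fold in both libraries, where 7.68% of genes were lower by that much. Ncf4 was lower in the upper heat shock quartile by more than 1.5-fold in both libraries, at ratios of 0.572 at 12 weeks and 0.653 at 1 week, where 7.16% of genes were and 6.83% were higher, but with tertiles in place of quartiles no member was. Sod1 and Cat passed 1.5-fold in both libraries for none of the 5 scores, nor did any member for cycling, where 1.97% of genes were higher and 0.38% lower.

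Endocrine RNA moved with these scores. In the upper NRF2 quartile the endocrine genes summed to 1659 CPM at 12 weeks and 1555 CPM at 1 week, against 4180 and 17651 CPM in the lower quartile, and the NF-kB quartiles differed the same way. Restricted to macrophages with at most 1% endocrine UMIs, a limit chosen after the data were seen, the endocrine sums were 1299 CPM at 12 weeks and 1137 CPM at 1 week in the upper NRF2 quartile, against 1513 and 1346 CPM in the lower. There the Sod2 ratios at 12 weeks and 1 week were 1.60 and 1.84 with NRF2 and 1.94 and 1.68 with NF-kB. Ncf1 then passed 1.5-fold lower with NRF2 in both libraries (0.565 and 0.609), and Ncf4 no longer did so with heat shock (0.469 and 0.690). Median depths before thinning were 7032 and 7101 UMIs in the upper and lower NRF2 quartiles at 12 weeks, and 8166 and 7574 at 1 week. Quartiles are ranges of a score over cells, which are not replicates, so no test was run.

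**Figure D5:**
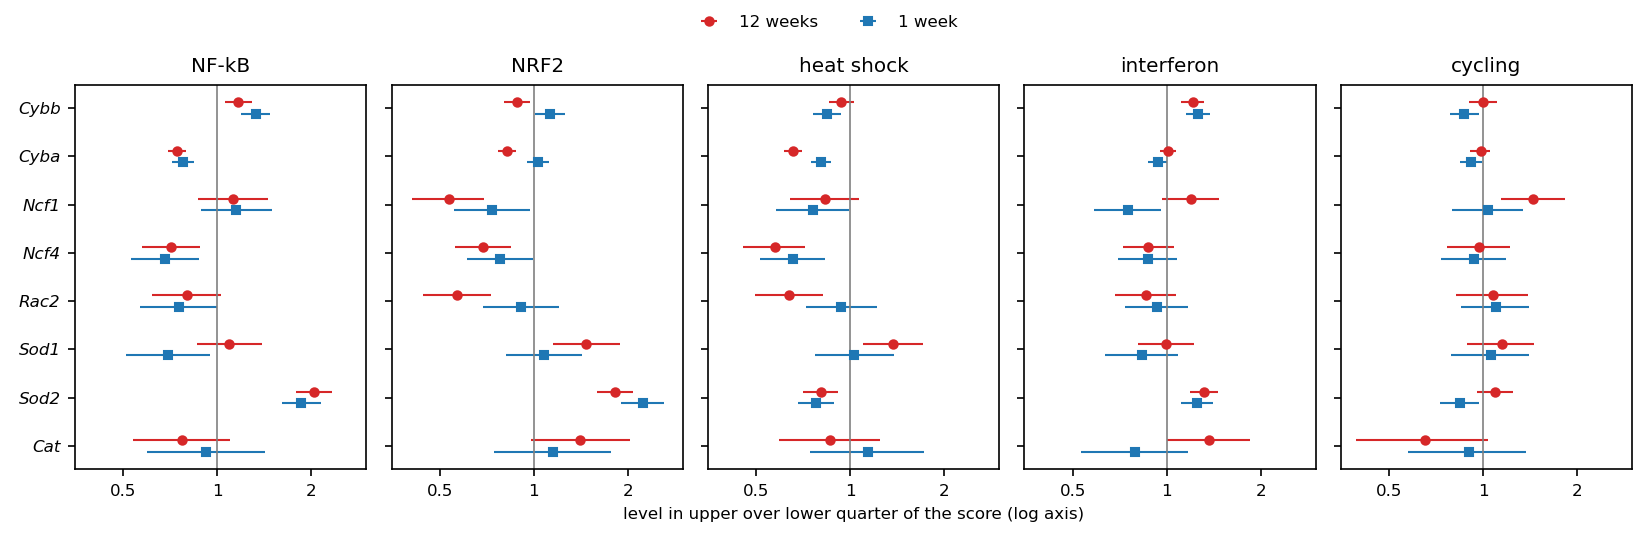
Ratio of each member's level in the upper over the lower quartile of 5 scores (x axis, log scale) over macrophages at 4000 UMIs, in the 12-week (circles) and 1-week (squares) libraries, with 95% counting intervals. Sod2 lies at 1.82 to 2.23 for the NF-kB and NRF2 scores in both libraries, while Cyba and Ncf4 lie below 1 for NF-kB.

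The genes whose counts ran most like a member's over macrophages were found among 3110 genes detected in at least 10% of these cells in both libraries, by the lower of the 2 libraries' Pearson correlations of log2(UMIs + 1). For Sod2 they were Txnrd1, Plek, Tnfaip2, Il1rn and Bcl2a1d, with lower correlations of 0.26, 0.25, 0.25, 0.25 and 0.24. For Cyba they were C1qb (0.27), C1qa (0.24), Cd52 (0.21), Tyrobp (0.21) and Ctsz (0.20), where C1qa and C1qb were used to choose the cells. For Cybb they were Tnfaip2 (0.16), Kctd12 (0.15), Plek (0.14), Sdc4 (0.14) and Slfn2 (0.13). Tnfaip2 and Plek thus stood among the nearest genes of both Cybb and Sod2. The ratio of joint detection of Cybb and Sod2, about 1, had little room to rise and does not speak to this. The nearest genes of Ncf1, Ncf4, Rac2, Sod1 and Cat reached only 0.08 to 0.13, and the median over all genes compared was near 0.

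Between the time labels, macrophage levels of the 8 genes lay close together. The ratio of 12 weeks over 1 week was 0.851 for Cybb, 1.01 for Cyba, 0.887 for Ncf1, 0.934 for Ncf4, 0.802 for Rac2, 1.14 for Sod1, 0.943 for Sod2 and 1.06 for Cat. None of the 8 was past 2-fold, where 2.23% of 5917 genes were. The widest departure was that of Rac2, with a 95% counting interval of 0.738 to 0.871. With 1 library per label there was no test, and counting intervals that leave out 1 show only that these libraries differ.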

How the data were processed

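The authors deposited raw UMI counts per gene and barcode, with no normalization. Per the submitters' processing notes reads were mapped to mm10 with Cell Ranger, and per the file headers the matrix software version was 3.1.0. The sources used here do not state how cells were called or whether counting used strand. Cyba, Ncf1 and Sod1 overlap genes on the opposite strand. The libraries held 12448628 UMIs in 1867 barcodes (12 weeks) and 12858754 in 1551 (1 week). Filters of 500 genes and 1000 UMIs or more, and of 10% mitochondrial UMIs or fewer, left barcodes at median depths of 6829 and 7392 UMIs. No doublet caller was run. Macrophages with at least 3 UMIs of another lineage's markers numbered 187 and 176 and were left out in 1 alternative.

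Counts were summed per library and class and tested with edgeR 4.0.16 in R 4.3.3 (TMM scaling, filterByExpr, quasi-likelihood test, library as block, Benjamini-Hochberg adjustment at 0.05). The minimum was 10 cells per class and library. The block pairs profiles that come from the same library. On simulated counts for macrophages minus the mean of the classes (2557 genes), 47.1% of 2-fold, 98.2% of 4-fold and 100% of 8-fold changes were recovered, with 7 false calls of 147. The simulated profiles shared the same base levels and the same spread for every gene, had no library effect and were changed in macrophages alone. These rates may therefore not hold for the real comparison, where 30.2% of genes were called. Other settings were DESeq2 1.42.0, its size factors, no filter on low counts, no block, other C1q, lineage and cell limits, other depths, and each library left out. Thinning used Python 3.11.15 and numpy 2.4.6 with a fixed seed. Gene positions came from GENCODE vM21 (GRCm38). A result on 1 further partner gene is not reported here. The members and lists were chosen with earlier results of these data known. Genes outside the members were named only from the partner lists or as the 5 nearest by correlation.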

Additional observations from a re-analysis of the deposited data

Results flagged for a closer look

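In 13 cases the effect had opposite signs in the 2 libraries, and the difference was not tested. Each is given as a log2 ratio at 12 weeks, at 1 week and as their difference. Ncf1 in macrophages over B-marker cells was -0.20 at 12 weeks and 2.56 at 1 week, a difference of -2.76. Ncf1 over dendritic-marker cells was -0.29 and 1.09, a difference of -1.37. Ncf4 over dendritic-marker cells was -0.72 and 0.20, a difference of -0.92. Sod1 over T-marker cells was -0.81 and 1.30, a difference of -2.11, where the 1-week class had 9 cells.

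The other 9 cases were ratios of the upper over the lower quartile of a score within macrophages. A sign says little where a value lies near 0, as for Cyba with interferon and Cybb with cycling at 12 weeks. For the NRF2 score Cybb was -0.18 and 0.17 (difference -0.35) and Cyba was -0.28 and 0.04 (difference -0.33). For the NF-kB score Sod1 was 0.13 and -0.52 (difference 0.65). For the interferon score Ncf1 was 0.26 and -0.41 (difference 0.67), Cat was 0.45 and -0.33 (difference 0.78) and Cyba was 0.01 and -0.10 (difference 0.11). For the cycling score Sod2 was 0.13 and -0.25 (difference 0.38) and Cybb was 0.00051 and -0.20 (difference 0.20). For the heat shock score Cat was -0.22 and 0.18 (difference -0.40).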

How the results depend on the processing

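Cybb and Sod2 were called higher in macrophages in every fit run for the B-marker, dendritic-marker and mean contrasts. With either library alone, the fitted log2 fold changes against the mean were 2.24 and 2.59 for Cybb and 2.68 and 2.46 for Sod2 (12 weeks and 1 week). These fits had no filter on low counts, so their scaling also differs from that of the joint fit, which gave 2.15 and 2.34. Other members moved. Against the mean of the classes, 3 of 7 members tested were called as reported, beside 870 of 2882 genes. Without a filter on low counts 5 of 8 members and 1512 of 17700 genes were called, a smaller share of genes. With classes from 5 cells 5 of 7 members and 919 of 2773 genes were called. With low C1q at 0 UMIs 6 of 8 members and 1330 of 9734 genes were called. With lineage markers of at least 5 UMIs 7 of 8 members and 1609 of 9861 genes were called. Both hold for the mean and the B-marker contrast, since only the B-marker class was left in those fits. Without the filter 1539 of 17700 genes were called against B-marker and 830 against dendritic-marker cells. The stricter cell filter left only dendritic-marker cells and called 1016 of 9536 genes. It turned Ncf4 to -0.066 in the mean contrast and Sod1 to 0.13 in the dendritic-marker contrast. Without the replicate block, 897 of 2882 genes and 4 of 7 members were called against the mean, Rac2 passing at -0.71 (edgeR adjusted p = 0.0426).

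Depth set the shares. Oxidase with antioxidant UMIs were found in 54.9% of macrophages at 12 weeks and 55.1% at 1 week at 2000 UMIs, and in 88.1% and 88.7% at 6000. More oxidase UMIs were found in 84.8% and 88.8% at 2000, and in 96.2% and 96.7% at 6000. With at least 20 C1q UMIs the share with both was 81.3% at 1 week. Between quartiles, members lower with heat shock fell to 0 with tertiles and to 0 with at most 1% endocrine UMIs, where 1 member was lower with NRF2. The cause of these shifts was not tested. No member passed 2-fold between time labels under any scaling or filter run.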

Other observations

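Some peroxide-removing partners differed more between the time labels in macrophages than the members did. Gsr had 102 CPM at 12 weeks and 62.2 CPM at 1 week, a ratio of 1.64 (95% counting interval 1.49 to 1.80). Txnrd1 had 976 CPM at 12 weeks and 665 CPM at 1 week, a ratio of 1.47 (1.43 to 1.51), and Prdx1 a ratio of 1.33 (1.31 to 1.35). Peroxiredoxins Prdx2, Prdx3 and Prdx4 had ratios of 12 weeks over 1 week of 0.765, 0.759 and 0.760. With 1 library per label none of this was tested.

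Against B-marker cells, Hvcn1 gave a log2 fold change of 0.03 ± 0.46 in macrophages and was not called (edgeR adjusted p = 0.973).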
